A study of Mus musculus with 4 samples.

Results

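The 10 genes described here encode the retinoblastoma (Rb) family and the core of the DREAM complex in mouse hematopoietic stem and progenitor cells. They were chosen by symbol from the 32285 genes counted: Rb1, Rbl1 and Rbl2 of the Rb family, E2f4, E2f5 and Tfdp1 of the E2F and DP transcription factors, and Lin9, Lin37, Lin52 and Lin54 of the MuvB core. All 10 had UMIs (unique molecular identifiers, counted as RNA molecules) in every pool of cells compared. DREAM is a repressor assembled in resting cells from an Rb-like protein (p107, encoded by Rbl1, or p130, encoded by Rbl2), an E2F with its DP partner, and the MuvB core. It silences cell cycle genes until cyclin-dependent kinases release the Rb-like protein, after which MuvB joins B-Myb and FoxM1 to switch on genes of G2 and mitosis. Early targets, needed for DNA replication, carry E2F sites, and late targets, needed for division, carry a cell cycle homology region (CHR) that Lin54 contacts. Sin3B, the scaffold of a histone deacetylase complex, is the protein removed in these mice.

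Single-cell RNA-Seq counts came from Lineage- Sca-1+ cKit+ (LSK) bone marrow cells of adult C57BL/6 mice, the compartment of stem cells and multipotent progenitors. Wild-type cells were from Sin3B F/F mice without Cre, and knockout cells were from Sin3B F/F; Vav1-iCre+ mice, in which the recombinase acts in the whole hematopoietic system from embryonic life. Each condition held 1 cDNA library with both genotypes, 2 mice pooled per genotype: homeostasis (untreated, male mice per the study's methods) and stress, 9 days after intraperitoneal 5-fluorouracil (5-FU, 100 mg/kg), which kills dividing progenitors. Hashtag antibodies marked the genotypes, and which tag belonged to which genotype came from the study's methods, since the labels name both genotypes for every library.

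After filters, 10184 wild-type and 4108 knockout cells were kept at homeostasis, and 4855 and 3307 after 5-FU. Summed UMIs ran from 31901720 to 82876977 per pool of genotype and library. HTODemux gave no single tag to many barcodes, with 6283 untagged and 1441 doubly tagged at homeostasis and 3290 and 434 after 5-FU. The libraries shared 76 cell barcodes. Sin3b stood at 81.7 CPM (UMIs of a gene per 1000000 UMIs of a pool) in wild-type and 23.3 CPM in knockout cells at homeostasis. After 5-FU it stood at 113 and 15.1 CPM. Sin3b was thus lower under the knockout tag in both libraries, at 0.28 of the wild-type level at homeostasis and 0.13 after 5-FU. With a tag holding 80% of hashtag UMIs, knockout cells numbered 868 instead of 4108 at homeostasis and 4051 instead of 3307 after 5-FU. The source of the remaining Sin3b UMIs was not tested. T cell and stromal marker lists summed to under 1 CPM in all 4 pools. A B cell list summed to 23.8 to 32.1 CPM and an erythroid list to 3.18 to 22.9 CPM. A neutrophil list summed to 4.01 to 52.1 CPM, the highest in knockout cells at homeostasis, against 10.6 CPM in wild-type cells there. Condition and library could not be told apart, so no level is compared between homeostasis and 5-FU. Counts of 3' ends are not scaled to transcript length, so no level is compared between genes.

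Cells were sorted into classes by genes that include none of the 10. Stem marker-positive cells had a UMI of at least 5 of 8 stem cell genes (among them Procr, Slamf1, Mecom and Hlf), histone-high cells had a high summed level of 67 canonical histone genes, which are expressed in S phase, and mitotic cells had a high summed level of 18 genes of G2 and mitosis such as Ccnb1, Cdc20 and Plk1. A cell past the mitotic gate counted as mitotic whatever its other genes, a histone-high cell took precedence over a stem marker-positive one, and the rest are called the remaining cells. The 4 pools held 546 to 830 stem marker-positive, 569 to 2098 mitotic and 1864 to 6864 remaining cells. Histone-high cells numbered 579 and 142 at homeostasis but 35 and 31 after 5-FU.

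Promoter sequences are shown for 5 of the genes because letters of E2F sites or of the CHR occur in them and because these genes moved in different directions between cell classes. They are RefSeq windows (build GRCm38.p6) of 250 bases before to 50 bases after a transcription start, given 5′ to 3′ on the gene's strand. Capitals mark matches, on either strand, to E2F-type letters (TTTCCCGC, TTTCGCGC, TTTGCCGC or TTTGGCGC) or CHR letters (TTTGAA or TTCGAA). The windows are Rbl1 at chr2:157204485-157204784 (minus strand), Tfdp1 at chr8:13338501-13338800 (plus), Lin52 at chr12:84451258-84451557 (plus), Lin54 at chr5:100498524-100498823 (minus) and Rbl2 at chr8:91069807-91070106 (plus).
Rbl1: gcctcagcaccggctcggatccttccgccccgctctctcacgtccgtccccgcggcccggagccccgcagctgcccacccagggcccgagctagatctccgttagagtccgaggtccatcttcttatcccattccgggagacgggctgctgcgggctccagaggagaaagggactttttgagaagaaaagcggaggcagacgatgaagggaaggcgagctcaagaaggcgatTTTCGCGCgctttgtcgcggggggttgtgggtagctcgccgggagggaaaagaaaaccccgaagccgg
Tfdp1: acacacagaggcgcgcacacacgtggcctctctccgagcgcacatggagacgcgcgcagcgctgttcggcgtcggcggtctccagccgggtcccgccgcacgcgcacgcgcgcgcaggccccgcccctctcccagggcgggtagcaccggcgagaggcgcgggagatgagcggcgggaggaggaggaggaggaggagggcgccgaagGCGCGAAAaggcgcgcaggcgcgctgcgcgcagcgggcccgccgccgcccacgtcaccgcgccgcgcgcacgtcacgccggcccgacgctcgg
Lin52: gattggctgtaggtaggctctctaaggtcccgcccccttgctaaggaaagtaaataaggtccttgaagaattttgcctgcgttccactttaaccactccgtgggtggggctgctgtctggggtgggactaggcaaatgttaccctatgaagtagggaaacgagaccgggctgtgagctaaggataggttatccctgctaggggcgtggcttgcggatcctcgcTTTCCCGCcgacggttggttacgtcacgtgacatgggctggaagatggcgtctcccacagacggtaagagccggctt
Lin54: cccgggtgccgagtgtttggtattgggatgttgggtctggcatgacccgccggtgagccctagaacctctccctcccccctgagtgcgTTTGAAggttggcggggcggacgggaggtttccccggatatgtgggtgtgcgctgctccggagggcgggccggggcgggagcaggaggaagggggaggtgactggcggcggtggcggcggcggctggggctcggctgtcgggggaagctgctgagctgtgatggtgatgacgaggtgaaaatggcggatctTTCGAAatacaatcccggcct
Rbl2: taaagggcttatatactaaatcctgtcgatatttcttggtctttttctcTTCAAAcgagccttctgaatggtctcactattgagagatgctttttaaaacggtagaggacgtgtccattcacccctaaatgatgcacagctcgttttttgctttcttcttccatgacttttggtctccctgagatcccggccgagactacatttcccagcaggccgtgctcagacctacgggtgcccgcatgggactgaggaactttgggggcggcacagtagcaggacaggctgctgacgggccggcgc

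E2F-type letters stood in the windows of Rbl1, Tfdp1 and Lin52, and CHR letters in those of Lin54, Rbl2 and Lin37. The match began 18 bases before the start in Rbl1, 43 bases before it in the Tfdp1 window shown and 27 bases before it in Lin52. Lin54 held TTTGAA 162 bases before the start shown and TTCGAA 30 bases after it, and its other annotated start also had TTTGAA. In all, 4 of 8 windows of 6 genes held E2F-type letters, against 2.26% of 32851 mouse promoter windows, and 4 of 8 held CHR letters, against 19.2%. The windows of Tfdp1 overlap and share a single match, which is counted in both. The other 4 genes, Rb1, E2f4, E2f5 and Lin9, had no entry. Among the targets, 10 of 23 early-target windows held E2F-type letters and 20 of 22 late-target windows held CHR letters. These matches describe letters in a window and do not show a bound site.

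**Figure D1:**
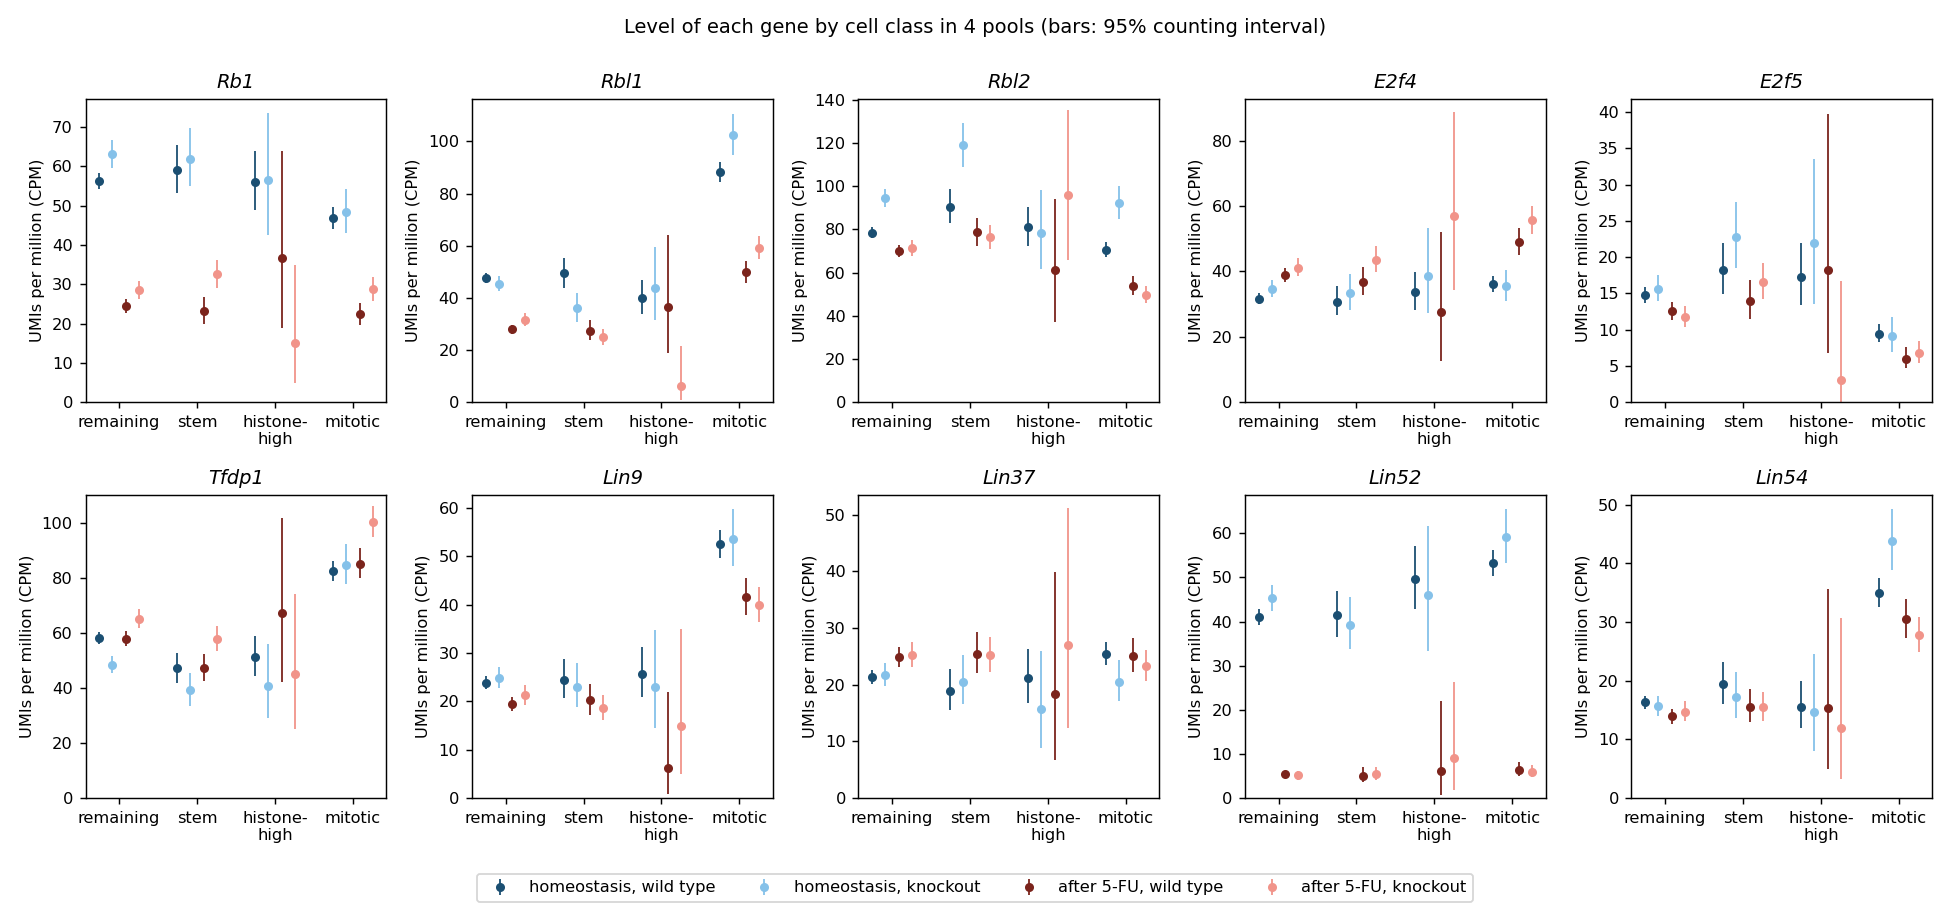
Level of each of the 10 genes, in CPM (linear axis from 0), in the 4 cell classes and 4 pools. Points are pools of cells and bars are 95% counting intervals. Lin54, Lin9, Rbl1 and Tfdp1 were higher in the mitotic than in the remaining cells of every pool, E2f5 was lower in every pool, and the histone-high points after 5-FU rest on 1 to 32 UMIs a gene.

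In mitotic cells the 10 genes split. Lin54, Lin9 and Rbl1 stood at about 2-fold of their level in the remaining cells, Tfdp1, Lin52 and E2f4 rose less, and E2f5, Rbl2 and Rb1 fell. Across the 4 pools, 9 of the 10 genes passed the test (edgeR quasi-likelihood test, Benjamini-Hochberg adjusted p under 0.05, with the pool as a block), 6 higher and 3 lower. Of all 14561 genes tested, 51.3% passed, 19.4% higher and 31.8% lower. The median log2 difference was 0.33 over the 10 genes and -0.10 over all genes.

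Among the Rb family, Rbl1 (p107, the Rb-like protein of cycling cells) rose. It was at 88.1 CPM in wild-type and 102 CPM in knockout mitotic cells at homeostasis, against 47.5 and 45.4 CPM in the remaining cells. After 5-FU the mitotic levels were 49.8 and 59.1 CPM, against 27.9 and 31.5 CPM. Rbl1 was higher in mitotic than in remaining cells of each pool. The pools' log2 differences ran from 0.84 to 1.17, with an edgeR estimate of 0.98 (adjusted p = 1.4e-10). Rbl2 (p130, the Rb-like protein of resting cells) went the other way. It was at 70.7 and 92.3 CPM in mitotic cells at homeostasis, against 78.4 and 94.4 CPM in the remaining cells, and at 53.8 and 49.8 CPM after 5-FU, against 70.0 and 71.4 CPM. Rbl2 was lower in mitotic cells within each pool, but at homeostasis the genotypes' levels interleaved, since knockout mitotic cells lay above wild-type remaining cells. The edgeR estimate was -0.23 (adjusted p = 0.0038). Rb1 (pRb, which binds the activating E2Fs) had the smallest change that passed, -0.17 (adjusted p = 0.047). Its levels were 46.9 and 48.4 CPM in mitotic and 56.2 and 63.1 CPM in remaining cells at homeostasis, but 22.3 and 28.7 against 24.4 and 28.5 CPM after 5-FU, where the knockout pool showed no fall. Rb1 lost the call under 11 of 15 alternatives and Rbl2 under 4 of 15, among them the fits without either 5-FU pool for Rbl2, where its estimates were -0.13 without the wild-type and -0.10 without the knockout pool. Without the homeostasis wild-type, homeostasis knockout or 5-FU wild-type pool, the Rb1 estimate was -0.13, -0.11 and -0.12.

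Of the E2F and DP genes, Tfdp1 (DP1, the partner that E2Fs need to bind DNA) rose. Its mitotic levels at homeostasis were 82.4 CPM in wild-type and 84.6 CPM in knockout cells, against 58.0 and 48.5 CPM in remaining cells. After 5-FU they were 85.1 and 100.2 CPM, against 57.9 and 65.0 CPM. Tfdp1 was higher in the mitotic cells of each pool, and the estimate was 0.65 (adjusted p = 7.2e-10). E2f4 (the main repressor E2F of DREAM) differed by 0.30 (adjusted p = 0.00065), from 0.04 in homeostasis knockout cells to 0.43 in knockout cells after 5-FU. E2f5 (the other repressor E2F) was the gene with the deepest fall. It was at 9.46 and 9.08 CPM in mitotic cells at homeostasis, against 14.7 and 15.7 CPM in remaining cells, and at 6.01 and 6.76 CPM after 5-FU, against 12.6 and 11.7 CPM. The estimate was -0.76 (adjusted p = 2.1e-06), and each pool's own interval lay below 0. The repressor E2Fs thus moved in opposite directions in the same cells.

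The MuvB genes did not rise together to the same extent. Lin54 (the subunit that contacts CHR DNA) was at 35.0 and 43.8 CPM in wild-type and knockout mitotic cells at homeostasis, against 16.3 and 15.6 CPM in remaining cells. After 5-FU it was at 30.5 and 27.7 CPM, against 13.9 and 14.7 CPM. Lin9 (the subunit through which MuvB meets B-Myb) was at 52.5 and 53.7 CPM against 23.8 and 24.9 CPM at homeostasis, and at 41.5 and 39.9 CPM against 19.4 and 21.2 CPM after 5-FU. Both were higher in the mitotic cells of each pool. The estimates were 1.18 for Lin54 (adjusted p = 1.0e-12) and 1.10 for Lin9 (adjusted p = 5.9e-13). Lin52 (the subunit whose phosphorylation helps DREAM to assemble) rose by 0.36 on the log2 scale (adjusted p = 0.00016). Its 71 and 73 mitotic UMIs after 5-FU left intervals that included 0 in both pools of that library. Lin37 (the subunit needed for repression by DREAM) was the 1 gene that did not pass, at 0.08 (adjusted p = 0.41), with pools from -0.12 to 0.25. Lin54, Lin9, Rbl1, Tfdp1, Lin52, E2f4 and E2f5 kept their call and direction under all 15 alternatives. Of kept cells, 1873 at homeostasis and 694 after 5-FU passed the mitotic and the histone gate and count here as mitotic. With the histone gate first, the mitotic class held only cells not past the histone gate. Its estimates were then 0.70 for Lin54, 0.70 for Lin9, 0.42 for Rbl1 and 0.44 for Tfdp1. Those of Lin52, E2f4 and E2f5 were 0.25, 0.29 and -0.48. Mitotic cells were deeper, with medians of 11091 to 21552.5 UMIs against 6264 to 9367.5 in remaining cells. The levels are scaled to UMIs, and with gates set on cells thinned to 4000 UMIs 7 of the 10 genes passed. Those gates changed the classes. After 5-FU their mitotic cut was 0.0198 UMIs per 10000, so that a cell with any UMI of the mitotic genes passed, which put 50.1% of the wild-type pool and 52.1% of the knockout pool in the mitotic class. The stem gate then required 4 markers. Other marker lists moved with the mitotic contrast in each pool. A list of 5 myeloid genes was higher in mitotic than in remaining cells, at 578 to 857 CPM against 453 to 787 CPM. A list of 5 lymphoid genes was lower, at 62.6 to 545 CPM against 129 to 608 CPM. The 8 stem cell genes summed to 484 to 1287 CPM in mitotic and 814 to 2000 CPM in remaining cells, and 5 megakaryocyte-erythroid genes to 95.1 to 950 CPM against 71.3 to 431 CPM. Their part in the differences was not tested.

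**Figure D2:**
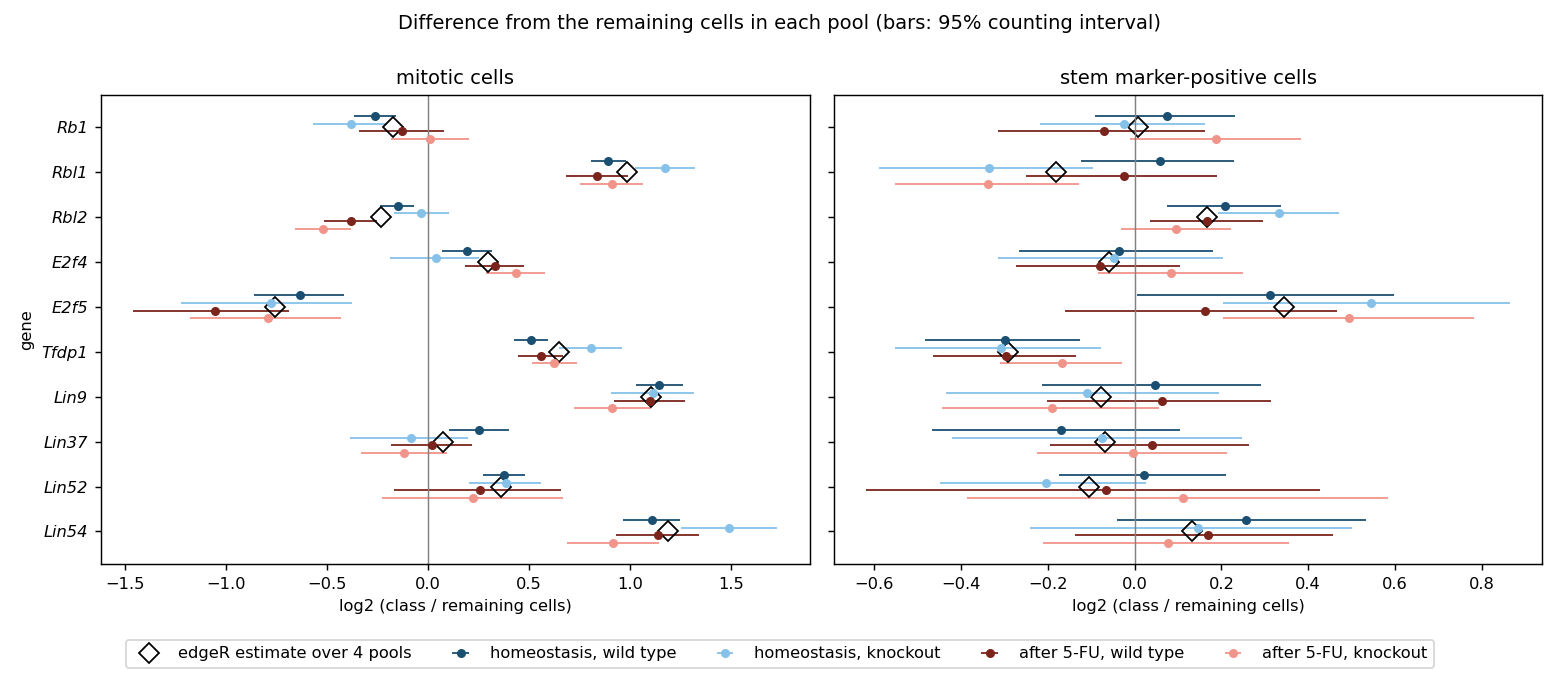
Log2 difference of mitotic cells (left) and stem marker-positive cells (right) from the remaining cells of the same pool for the 10 genes. Coloured points are the 4 pools with 95% counting intervals, and open diamonds are edgeR estimates over the pools. Lin54, Lin9, Rbl1 and Tfdp1 lie right of 0 and E2f5 left of 0 in mitotic cells in every pool. For each gene the edgeR estimate was smaller in size in stem marker-positive than in mitotic cells, which did not hold for every single pool.

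Other partners and targets moved in the same contrast as follows. Of 11 other partners and E2Fs, 10 were higher in mitotic cells and 0 lower, with a median of 0.56. They were led by Foxm1 (4.21, adjusted p = 2.8e-18), the activator that joins MuvB in G2, and the atypical repressors E2f7 (2.72, adjusted p = 9.0e-15) and E2f8 (2.46, adjusted p = 2.0e-16). Mybl2 (B-Myb, which replaces the Rb-like protein on MuvB) rose by 1.77. E2f2 (2.44), E2f1 (0.56), E2f3 (0.45), Rbbp4 (0.47, the histone-binding MuvB subunit), Dyrk1a (0.30, the kinase of Lin52) and E2f6 (0.16) passed as well, and Tfdp2 at 0.03 did not. All 27 late targets rose (median 3.77), led by Cdc25c (5.48), Kif18b (5.23) and Kif4 (5.00). None of the late targets was in the gate, but many are expressed in the cells it selects. Of 28 early targets, 26 rose (median of the list 0.80), among them Rrm2 (2.45) and Brca1 (2.23). The 1 early target that fell was Ung (-0.33), a uracil-DNA glycosylase, named here after its value was seen. Over the 15 alternatives, 14 to 27 early targets were higher and 0 to 2 lower, with medians from 0.29 to 0.92.

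In stem marker-positive cells, the class gated on stem cell genes, Tfdp1 was lower and E2f5 higher than in the remaining cells, and the other 8 genes did not pass. That is 2 of 10, against 19.6% of all 14561 genes, 10.9% higher and 8.65% lower, a share near the background. The median was -0.06 over the 10 genes and 0.01 over all genes. This gate counted detected markers without scaling to depth. Median depth was 7240 to 10908.5 UMIs in stem marker-positive cells, against 6264 to 9367.5 in remaining cells. With gates on thinned cells, 4 of the 10 genes passed. Tfdp1 was at 47.0 and 39.0 CPM in wild-type and knockout stem marker-positive cells at homeostasis, against 58.0 and 48.5 CPM in remaining cells. After 5-FU it was at 47.1 and 57.8 CPM, against 57.9 and 65.0 CPM. It was lower in each of the 4 pools, by an estimated -0.29 (adjusted p = 0.0015), and kept the call under all 15 alternatives. E2f5 was at 18.2 and 22.7 CPM in stem marker-positive cells at homeostasis, against 14.7 and 15.7 CPM, and at 14.0 and 16.5 CPM after 5-FU, against 12.6 and 11.7 CPM. It was higher in each of the 4 pools, with an estimate of 0.34 (adjusted p = 0.019). That call was lost under 5 of 15 alternatives, among them the fits without the homeostasis knockout pool (0.30) and without the 5-FU knockout pool (0.27). Among mitotic, remaining and stem marker-positive cells, E2f5 was thus lowest in the mitotic and highest in the stem marker-positive cells of each pool, and Tfdp1 the reverse.

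Rbl2 was at 90.6 and 119 CPM in stem marker-positive cells at homeostasis and at 78.6 and 76.4 CPM after 5-FU. These lay above the remaining cells of each pool by 0.10 to 0.33, but the estimate of 0.17 missed the threshold (adjusted p = 0.073). It passed with library size scaling (0.20, adjusted p = 0.047) and with gates on thinned cells (0.36, adjusted p = 3.9e-05). Rbl1 differed by -0.18 (adjusted p = 0.18), and passed without the low-count filter (-0.24, adjusted p = 0.018) and with gates on thinned cells (-0.45, adjusted p = 0.00068). Its knockout pools stood at -0.34 in both libraries, and its wild-type pools at 0.06 at homeostasis and -0.02 after 5-FU. The difference between genotypes in this contrast was not tested. Of the 28 early targets, 19 were lower and 0 higher, with a median of -0.40. Cdt1 (-0.61), Ung (-0.61) and Rrm2 (-0.56) had the largest changes. Of 27 late targets, 4 were lower and Cdc25b alone higher (0.43), with a median of -0.26, a share called near the 19.6% of all genes. The 4 were Pbk (-0.56), Cks2 (-0.39), Kif11 (-0.34) and Ncapd2 (-0.28). These 5 late targets are named because they passed, after their values were seen. Of the partners, Mybl2 (-0.71), E2f1 (-0.64) and E2f8 (-0.57) were lower. Over the 15 alternatives, 17 to 25 early and 1 to 12 late targets were lower. A list of 5 lymphoid genes was lower than in the remaining cells of each pool, at 27.7 to 318 CPM against 129 to 608 CPM. Lists of 5 myeloid and 5 megakaryocyte-erythroid genes did not keep a single direction over the pools. The part of these lists in the differences was not tested.

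Histone-high cells that were not also mitotic did not differ detectably from the remaining cells in any of the 10 genes. None passed in edgeR or in DESeq2, none had an unadjusted edgeR p under 0.05, and 0.735% of all genes passed. Estimates ran from -0.26 for Rbl1 (adjusted p = 0.63) to 0.20 for E2f5 (adjusted p = 0.79). Their median was -0.07, and that of all genes was -0.01. Median depth of wild-type and knockout histone-high cells was 5941 and 6022.5 UMIs at homeostasis, against 6469 and 6264 in remaining cells. After 5-FU it was 7723 and 9423, against 8615 and 9367.5. At the top 10% of cells the mitotic cut was 14.2 (homeostasis) and 13.5 (5-FU) mitotic UMIs per 10000, instead of 4.90 and 5.70. Cells that the main gates called mitotic could thus count as histone-high. With these gates, and the mitotic gate still taking precedence, 7 of the 10 genes passed, against 33.6% of all genes. Lin54 (1.10), Tfdp1 (1.01), Lin9 (0.86), Rbl1 (0.77) and E2f4 (0.32) were then higher, and E2f5 (-1.13) and Rbl2 (-0.40) lower. The class from the main gates was thin after 5-FU, where most cells past the histone gate had also passed the mitotic gate. In both genotypes together, 1873 kept cells at homeostasis and 694 after 5-FU passed both gates. When these were counted as histone-high instead, an alternative added after the small class had been seen, the class held 2101, 493, 390 and 370 cells in homeostasis wild-type, homeostasis knockout, 5-FU wild-type and 5-FU knockout pools. Then 8 of 10 genes passed, against 45.9% of all 14034 genes tested. Lin54 (1.29), Lin9 (1.20), Rbl1 (1.13), Tfdp1 (0.71), Lin52 (0.42) and E2f4 (0.32) were higher, and E2f5 (-0.69) and Rbl2 (-0.19) were lower. Under this order of the gates the class included the cells that also passed the mitotic gate. In the histone-high class without them, 5 of 27 late targets were higher (Cdca3 at 1.84, Mki67 at 1.67, Ccna2 at 1.47, Aurkb at 1.16 and Kif11 at 1.14, the last pair named after their values were seen) and 0 of 28 early targets passed. The early targets had a median of -0.22, with 6 of 28 positive and 13 at an unadjusted edgeR p under 0.05. The share of S phase cells in this class was not tested. Over the 15 alternatives, 3 to 27 late targets and 0 to 27 early targets were higher. Those lower were 0 late and 0 to 7 early targets, and the early-target median ran from -0.31 to 1.19.

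**Figure D3:**
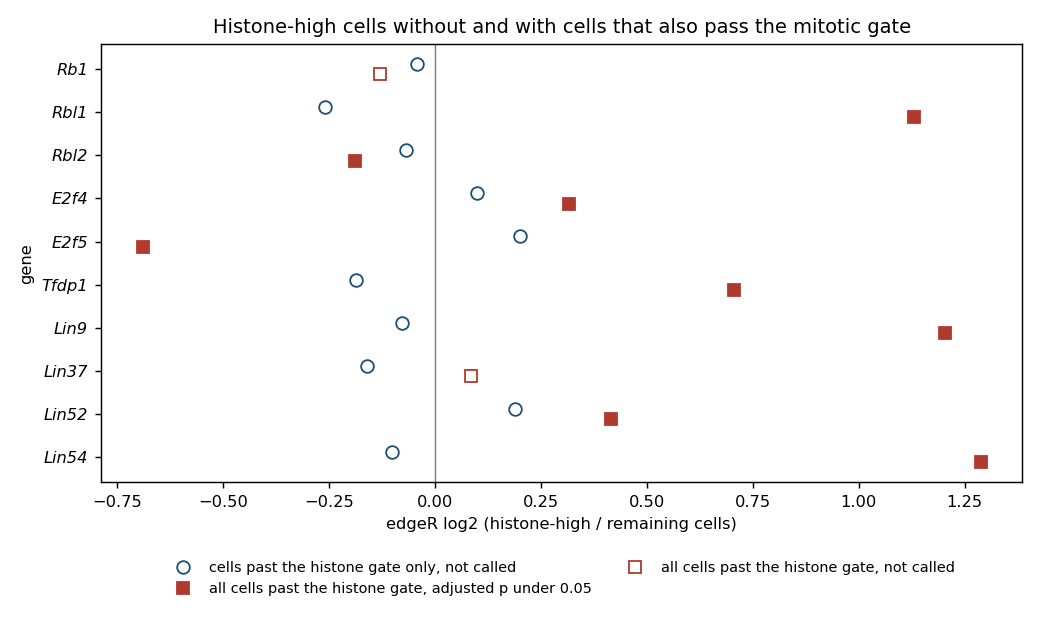
edgeR log2 difference of histone-high from remaining cells for the 10 genes, under the 2 ways of treating cells past both gates. Circles are cells past the histone gate only, squares all cells past it, and filled symbols passed at an adjusted p under 0.05. No circle is filled, and 8 of 10 squares are.

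To ask whether loss of Sin3B was accompanied by altered expression of its DREAM partners, genotypes were compared. The edgeR fit over both libraries had 1 residual degree of freedom, and none of the genes passed in any set of cells, with all 10 tested in 3 sets and 9 in histone-high cells, where Lin54 was below the low-count filter. Sin3b passed, at -2.34 in all kept cells (adjusted p = 0.0055). At an unadjusted p under 0.05 there was 1 of the 10 in all kept cells, 2 in stem marker-positive, 0 in histone-high and 1 in mitotic cells, and DESeq2 called 0 in each set. Of all genes, 1.81% passed in all kept cells, 4.57% in stem marker-positive, 0.657% in histone-high and 6.67% in mitotic cells. Within a library each genotype was 1 pool, so the ratios below carry counting intervals only and no test. Of the 10 genes, none that reached the minimum of 100 UMIs over both pools was past 1.5-fold. At homeostasis, the share of genes past 1.5-fold was 8.47% in all kept cells, 5.62% in stem marker-positive, 6.79% in histone-high and 5.82% in mitotic cells. After 5-FU it was 6.40% in all kept cells, 4.35% in stem marker-positive and 4.21% in mitotic cells, and 5.27% in histone-high cells, where none of the 10 genes could be counted. The minimum was reached by all 10 genes in all kept and in mitotic cells and in stem marker-positive cells at homeostasis, by 9 in stem marker-positive cells after 5-FU, by 7 in histone-high cells at homeostasis and by 0 in histone-high cells after 5-FU, where 1 to 32 UMIs a pool allow no reading of the ratios.

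In all kept cells at homeostasis, Rbl2 had the ratio farthest from 0. It was at 77.3 CPM in wild-type and 97.0 CPM in knockout cells, a log2 ratio of 0.33 (95% counting interval 0.26 to 0.39), and ratios of 0.39 were seen in both its stem marker-positive and mitotic cells. After 5-FU it was at 67.8 and 66.7 CPM, a ratio of -0.02 (-0.09 to 0.05), or 0.096 as a mean of per-cell CPM. The knockout level was thus higher at homeostasis in 3 of the 4 classes, histone-high cells at -0.04 being the exception (0.32 with the histone gate first), and close to wild type after 5-FU. The joint estimate was 0.16 (adjusted p = 0.54).

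Rb1 was at 53.8 and 59.9 CPM in wild-type and knockout cells at homeostasis (0.15, 0.08 to 0.23) and at 23.9 and 29.4 CPM after 5-FU (0.30, 0.19 to 0.42). It was the gene with the smallest genotype p in all kept cells, at an estimate of 0.23 (adjusted p = 0.31). In stem marker-positive cells after 5-FU it was at 23.2 and 32.5 CPM (0.48, 0.22 to 0.76), against 0.07 (-0.16 to 0.30) at homeostasis. With 1 more stem marker required, the 5-FU ratio was 0.091. A list of 5 megakaryocyte-erythroid genes summed to 200.4 CPM in wild-type and 567 CPM in knockout stem marker-positive cells after 5-FU, and its part in the Rb1 ratio was not tested.

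Rbl1 had ratios of opposite sign in stem marker-positive and mitotic cells. In stem marker-positive cells at homeostasis it was at 49.3 CPM in wild-type and 35.9 CPM in knockout cells (-0.46, -0.74 to -0.18), and after 5-FU at 27.4 and 24.9 CPM (-0.14, -0.40 to 0.13). In mitotic cells it was at 88.1 and 102 CPM at homeostasis (0.22, 0.09 to 0.35) and at 49.8 and 59.1 CPM after 5-FU (0.25, 0.09 to 0.41). The joint estimates were -0.28 in stem marker-positive (adjusted p = 0.34) and 0.24 in mitotic cells (adjusted p = 0.11), and the difference between these sets was not tested. The opposite sign at homeostasis depended on the order of the gates, since the mitotic ratio was -0.10 with the histone gate first. With gates on thinned cells the signs stayed opposite, at -0.17 in stem marker-positive and 0.090 in mitotic cells.

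Tfdp1 was lower in knockout cells at homeostasis, at 63.6 against 54.0 CPM (-0.24, -0.32 to -0.16), and higher after 5-FU, at 62.1 against 73.0 CPM (0.23, 0.16 to 0.30), which gave a joint estimate of 0.01 (adjusted p = 0.99). As a mean of per-cell CPM the 5-FU ratio was 0.12. E2f4 was at 33.0 and 34.8 CPM at homeostasis and at 40.7 and 46.0 CPM after 5-FU (0.17, 0.09 to 0.26). E2f5 was at 13.6 and 15.5 CPM at homeostasis (0.19, 0.03 to 0.34) and at 11.4 CPM in both genotypes after 5-FU.

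Of the MuvB genes, none stood apart between genotypes in all kept cells. There the intervals of Lin9, Lin37, Lin52 and Lin54 included 0 in both libraries, and the joint estimates lay between -0.03 and 0.04. When a cell's tag had to hold 80% of its hashtag UMIs, knockout cells at homeostasis numbered 868 instead of 4108, and 7 of the 10 ratios in all kept cells moved past their intervals, with Lin9 at -0.19, Lin52 at 0.16, Lin54 at 0.15, Rb1 at 0.31, E2f5 at 0.48, Rbl1 at -0.17 and Rbl2 at 0.42. In mitotic cells at homeostasis, Lin54 was at 35.0 and 43.8 CPM (0.33, 0.12 to 0.52) and Lin37 at 25.4 and 20.4 CPM (-0.31, -0.60 to -0.04). The Lin37 ratio was -0.036 with the tag at 80% and -0.50 with the histone gate first, and the Lin54 ratio was 0.54 with gates at the top 10% of cells and 0.62 with the histone gate first. After 5-FU the corresponding ratios were -0.14 (-0.36 to 0.08) for Lin54 and -0.11 (-0.35 to 0.13) for Lin37, the latter -0.39 with the histone gate first, where the joint estimate was -0.42 (adjusted p = 0.41). The mitotic knockout pool at homeostasis also held more RNA of a list of 4 neutrophil genes, summing to 223 CPM against 9.68 CPM in wild-type cells, and its part in these ratios was not tested.

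**Figure D4:**
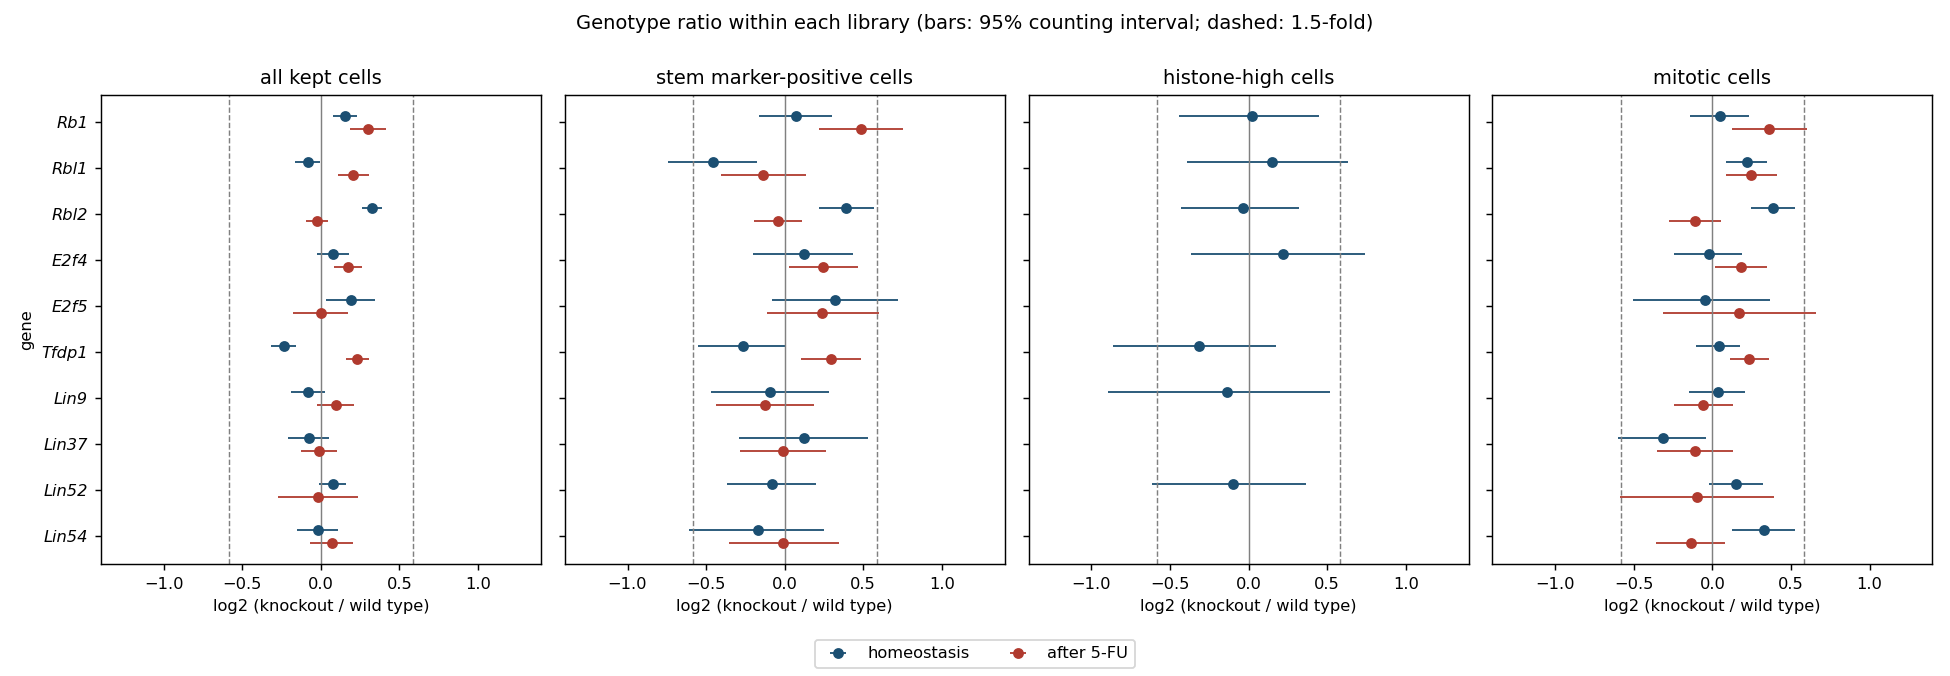
Log2 ratio of knockout over wild type for the 10 genes within each library, by set of cells. Points are ratios of summed UMIs with 95% counting intervals, shown where both pools together held at least 100 UMIs, and dashed lines mark 1.5-fold. No point lies past a dashed line.

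The targets of the complex were set beside its members. In mitotic cells, 10 of 28 early targets were higher in knockout cells and 0 lower (median 0.27), against 6.67% of all genes and a median of -0.01. Rrm2, a subunit of ribonucleotide reductase, was at 38.9 CPM in wild-type and 61.2 CPM in knockout cells at homeostasis and at 72.6 and 98.9 CPM after 5-FU, an estimate of 0.55 (adjusted p = 1.1e-06). Cdc45 (0.39, adjusted p = 0.027), which activates the replicative helicase, and Tyms (0.35, adjusted p = 0.0022), the thymidylate synthase that 5-FU metabolites inhibit, came next. Knockout levels were above wild type for 26 of the 28 at homeostasis and 27 of 28 after 5-FU. This count depended on the fit and on how cells were kept and gated: the direction of the median held over all 11 alternatives (0.19 to 0.38), but 0 to 13 early targets passed, with 0 in DESeq2 or with the histone gate first, 1 with scaling to library size alone, with gates on thinned cells or without the quality trim, and 13 without lineage removal. E2f8 (0.43, adjusted p = 0.00039) and E2f7 (0.40, adjusted p = 0.023) were higher among the 11 partners, of which 0 to 2 passed under the alternatives. Of 27 late targets, Pbk alone passed and was higher (0.35, adjusted p = 0.0032). Knockout levels were above wild type for 25 of the 27 at homeostasis (median 0.18) and 13 of 27 after 5-FU (-0.01). In knockout cells the mitotic class was also deeper after 5-FU, with a median of 21552.5 UMIs against 14239. The list of 5 megakaryocyte-erythroid genes moved with this contrast as well, at 334 CPM in knockout against 95.1 CPM in wild-type mitotic cells at homeostasis and at 950 against 626 CPM after 5-FU. The neutrophil list was higher in knockout mitotic cells at homeostasis, as given above, but not after 5-FU, at 3.34 against 9.42 CPM. The part of these genes in the counts was not tested.

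In stem marker-positive cells the early targets had a median of -0.10 between genotypes, with 1 of 28 lower (Chaf1b at -0.42, adjusted p = 0.026) and 0 higher, against 4.57% of all genes. The libraries went opposite ways there, with a median of -0.48 and 4 of 24 early targets higher in knockout cells at homeostasis, but 0.10 and 17 of 26 after 5-FU. At homeostasis 6 of the 24 were past 1.5-fold lower and 0 past it higher, against 5.62% of all genes in either direction. After 5-FU 0 of the 26 were past 1.5-fold, against 4.35% of all genes. Over the 11 alternatives the joint median ran from -0.42, with gates on thinned cells, to -0.039, with gates at the top 10% of cells, and 0 to 4 early targets were lower. None of 24 late targets and none of 10 partners tested passed there. In all kept cells, 0 of 28 early targets, 0 of 27 late targets and 0 of 11 partners passed, and here too the libraries differed in direction. At homeostasis 7 of 28 early and 0 of 27 late targets were above wild type (medians -0.18 and -0.26), while after 5-FU 26 of 28 and 26 of 27 were (0.22 and 0.31). The mitotic share was 20.6% for the wild-type pool against 13.9% for the knockout pool at homeostasis, and 15.1% against 17.6% for the 5-FU pools, and its part in these medians was not tested. The differences between libraries were not tested either. In histone-high cells 0 of 22 early targets and 1 of 11 late targets passed, Mki67 being lower in knockout cells (-0.90, adjusted p = 0.0083) and named after its value was seen. With the histone gate first, 7 of 28 early targets (median 0.22) and 3 of 27 late targets were higher in knockout histone-high cells and 0 lower, against 5.33% of all genes. The 3, named after their values were seen, were Pbk (0.36), Ncapg (0.29) and Aurkb (0.28).

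**Figure D5:**
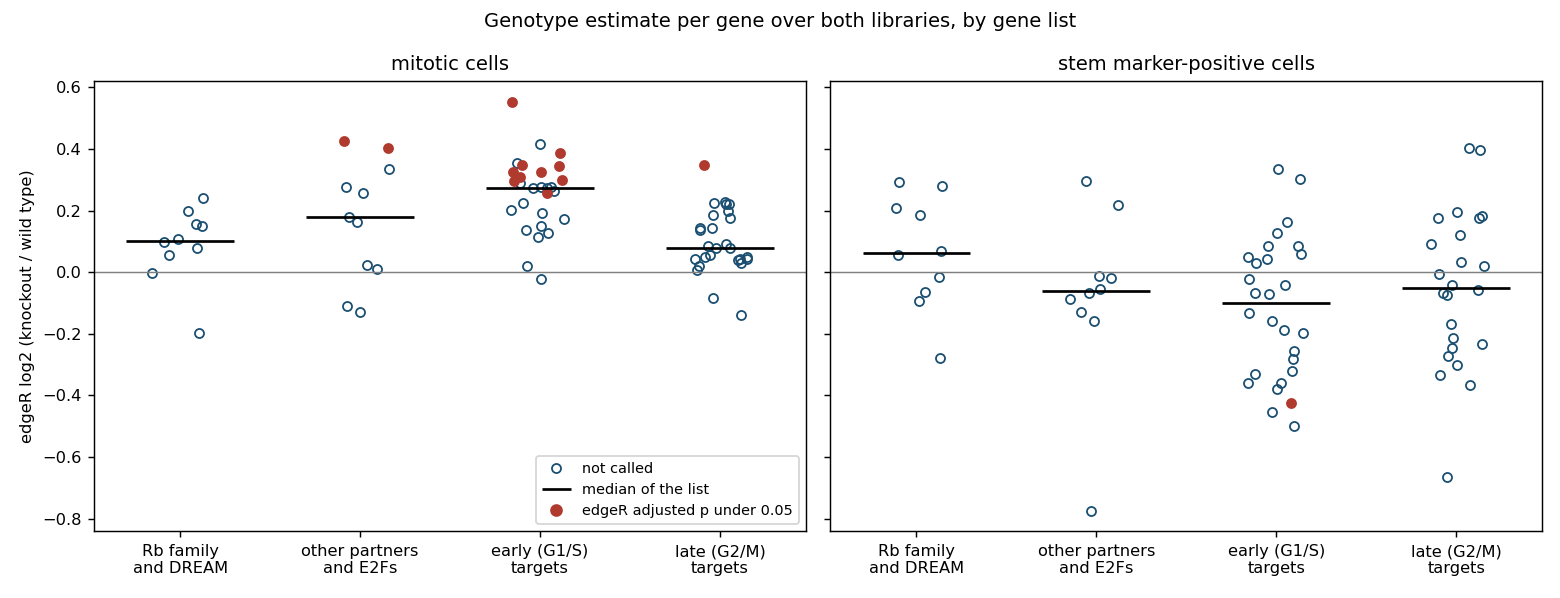
edgeR log2 estimate of knockout over wild type for each gene of 4 lists, in mitotic (left) and stem marker-positive cells (right). Each point is a gene, filled where the adjusted p was under 0.05, and lines are list medians. In mitotic cells 10 of 28 early targets are filled and none of the 10 Rb family and DREAM genes is.

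Over the 16 pools of class, genotype and library, centred within each library, Rbl1 and Lin9 had the widest log2 ranges, 2.98 and 2.45, and Lin37 the narrowest, 0.65. The widest ranges include histone-high pools after 5-FU with 2 to 12 UMIs of the gene. Among 11227 genes with at least 200 UMIs in each library, the genes most like Rbl1 over these 16 values were Srsf4 (a splicing factor, Pearson r = 0.972), Hras (a GTPase, 0.969) and Jpt2 (0.966). Those most like Lin9 were Nde1 (a spindle and centrosome protein, 0.976), Tdp1 (a DNA repair enzyme, 0.971) and Ubald2 (0.960). The values share libraries and differ in depth, and these correlations are a description.

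Free RNA was measured at homeostasis, where the matrix kept near-empty droplets. In 56160 barcodes of 10 to 100 UMIs, the 10 genes had 21 to 92 UMIs each. Sin3b had 101 UMIs there (65.4 CPM), against 81.7 CPM in wild-type and 23.3 CPM in knockout cells of that library. Rbl1 was there at 29.8 CPM and Lin9 at 14.2 CPM, below their levels in mitotic and in remaining cells of that library. Lin54, at 32.4 CPM, Lin37, at 36.2 CPM, and Tfdp1, at 59.5 CPM, were above their levels in remaining cells, and E2f5, at 13.6 CPM, Rb1, at 50.5 CPM, and Lin37 were above their levels in mitotic cells. The droplet levels of E2f5, Rb1 and Tfdp1 rest on 21, 78 and 92 UMIs. No counting interval was computed for droplet levels, so small gaps from the cells allow no reading. The part of free RNA in the differences was not tested.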

How the data were processed

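The authors deposited raw counts of UMIs per gene and barcode, together with hashtag counts, made with Cell Ranger 4 (homeostasis, all barcodes) and Cell Ranger 6.0.1 (5-FU, called cells) per the file headers. The submitters' processing notes list build mm9, Cell Ranger, Seurat and DESeq2. The sources used here do not say whether introns were counted. Genes of the homeostasis matrix were named from the 5-FU feature list, since log counts of the matrices correlated at 0.919 in the order given and at most 0.393 when shifted by 1 to 3 rows.

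Cells at homeostasis were barcodes with at least 2921 UMIs (10% of the 99th percentile of the 10000 largest), 23931 in all. After 5-FU the 12753 deposited barcodes were used. HTODemux (Seurat 5.3.0, quantile 0.99) assigned tags, and singlets were kept, so doublets within a genotype remain. The top and bottom 2% of UMIs, genes and mitochondrial share and cells in which 9 lineage genes had 2 UMIs or more in sum were removed. Median depth was 6967 and 6606.5 UMIs (wild type, knockout) at homeostasis and 9306 and 10935 after 5-FU.

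Histone and mitotic gates were Otsu cuts on log scores per library, at 17.6 and 31.9 histone UMIs and 4.90 and 5.70 mitotic UMIs per 10000 (homeostasis, 5-FU). Of cells, 9.27% and 2.60% lay within 1.3-fold of the histone cut, 7.03% and 6.36% within 1.3-fold of the mitotic cut, and 7.86% and 13.5% at exactly 5 stem markers.

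UMIs were summed per class, genotype and library (16 pools). edgeR 4.0.16 quasi-likelihood fits (R 4.3.3, TMM, filterByExpr) used pool and class (9 residual degrees of freedom) or library and genotype (1 residual degree of freedom), adjusted over all genes tested, and were tested on simulated data. Pools of 1 library share a run and their mice cannot be separated, so p-values measure no spread between mice. They measure the spread between these pools, which may be technical. edgeR draws a gene's spread partly from all genes. With 1 residual degree of freedom, a genotype p-value therefore says little about that gene's own spread. Ratios within a library are log2 ratios of sums with 0.5 UMIs added, with exact 95% binomial intervals, and levels have exact 95% Poisson intervals. Both cover counting error only.

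The 10 genes, the lists (11 partners and E2Fs, 28 early and 27 late targets) and the rule for named genes were chosen with earlier results of these data known. The rule named all 10 genes and Sin3b, partners that passed in a class contrast, the 3 target genes of each list with the largest fold, and the 3 genes most like each of the 2 genes of widest range. One gene that the rule named is not reported here. Promoter windows and motif shares were taken from RefSeq. Of the 32285 gene IDs, 32158 matched the name table. Alternatives are given in the closing section. A list of 4 SIN3 complex genes was fitted too, of which Sin3b alone passed between genotypes.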

Additional observations from a re-analysis of the deposited data

Results flagged for a closer look

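Genotype ratios (log2, knockout over wild type) of opposite sign in the 2 libraries, with both 95% counting intervals away from 0, were found for 2 of the 10 genes. In all kept cells, the homeostasis ratio of Rbl1 was -0.083 (interval -0.16 to -0.0046), while its 5-FU ratio was 0.21 (0.11 to 0.30). The corresponding ratios of Tfdp1 were -0.24 (-0.32 to -0.16) for homeostasis and 0.23 (0.16 to 0.30) for 5-FU. Tfdp1 in the remaining cells had a ratio of -0.26 (-0.36 to -0.15) for homeostasis, against 0.17 (0.066 to 0.27) for 5-FU. Each value is 1 pool against 1 pool, and the differences between libraries were not tested. Mitotic cells, in which Rbl1 and Tfdp1 were higher, made up unequal parts of the pools. At homeostasis they were 2098 of 10184 wild-type cells, against 569 of 4108 cells with the knockout tag. After 5-FU they were 732 of 4855 and 582 of 3307. By definition the remaining cells held no cell past the mitotic gate. The part of mitotic cells in the ratios of all kept cells was not tested.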

How the results depend on the processing

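Of 450 recomputed class differences, 388 kept their direction and their side of the threshold. Without reversing, 20 lost the call and 9 gained it. The other 33 reversed. Of these, histone-high Rbl1, E2f5, Tfdp1, Lin9 and Lin54 also gained the call with gates at the top 10% and with the histone gate first. The mitotic count of 9 genes ranged from 7 to 9. In the stem marker-positive class, 2 genes passed, and 1 did with the tag at 80% of hashtag UMIs, without the quality trim or with the histone gate first, 4 with gates on thinned cells, and 1 to 2 with a pool left out. In the histone-high class, 0 passed, against 7 with gates at the top 10% of cells and 8 with the histone gate first. Between genotypes, 0 passed in each set, apart from 1 (Rbl1, 0.29, adjusted p = 0.042) in histone-high cells with the histone gate first. Past 1.5-fold at homeostasis there was 1 gene in stem marker-positive cells with the tag at 80%, 1 in histone-high cells at the top 10% and 1 in mitotic cells with the histone gate first, each against 0. Reversals were mostly near 0 or in the histone-high class, and their cause was not tested. With the histone gate first, histone-high values were Rbl1 1.13, E2f5 -0.69, Tfdp1 0.71, Lin9 1.20, Lin37 0.084 and Lin54 1.29, and Rb1 in stem marker-positive cells was -0.0061. At the top 10%, histone-high values were Rbl1 0.77, E2f5 -1.13, Tfdp1 1.01, Lin9 0.86, Lin37 0.10 and Lin54 1.10. At a minimum of 5000 UMIs they were Rb1 0.063, E2f5 -0.17, Tfdp1 0.024, Lin9 0.28, Lin37 0.21 and Lin54 0.16. With the tag at 80% they were E2f5 -0.82, Lin52 -0.30 and Lin54 0.022, and Rb1 in stem marker-positive cells was -0.075. With gates on thinned cells they were Lin9 0.013, Lin52 -0.068 and Lin54 0.054, and Lin54 in stem marker-positive cells was -0.14. Without a low-count filter Rb1 in stem marker-positive cells was -0.056, and at 1 more stem marker Lin37 was 0.041. With each pool left out, Rb1 ran from -0.056 to 0.035 in stem marker-positive and from -0.13 to 0.0099 in histone-high cells, Rbl2 from -0.19 to 0.0058 in histone-high cells, and Lin37 from -0.0080 to 0.18 in mitotic cells. Early targets called between genotypes in mitotic cells numbered 0 with DESeq2 or the histone gate first, 1 with library size scaling, thinned gates or no trim, 2 with the tag at 80%, 3 without the filter, 6 at the top 10% or 5000 UMIs, and 13 without lineage removal. Of 720 member genotype ratios, 678 moved by less than their counting interval and 42 by more. The labels give the pools no replicate numbers, so none served as a block. The class fits had the pool and the genotype fits the library as a term. Depth limits the histone-high class after 5-FU most, where a gene had 1 to 32 UMIs a pool.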
